A study of Mus musculus with 4 samples.

Results

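Zfp genes encode proteins with zinc fingers, small folds that hold a zinc ion, and 227 of the 14469 mouse genes assigned TFIIB regions in the heart carried such a name. Members were the genes listed under a symbol made of Zfp and digits alone, apart from Zfp36, whose protein binds messenger RNA through another kind of finger. They were named by 368 pairings with 343 regions, of 20364 regions in all. All 227 gene identifiers matched the RefSeq gene table, 205 with the same symbol and 22 under a newer one. The data came from ChIP-seq of TFIIB, the general transcription factor that joins the TATA-binding protein to RNA polymerase II at promoters, in whole hearts of C57BL/6 mice. The libraries made with the antibody sc-225 to GTF2B (TFIIB) were 1 from hypertrophied hearts of 12-week-old male mice that had undergone transaortic coarctation (TAC), surgery that raises the load on the heart, 4 days earlier, 1 from postnatal hearts of neonates aged 1 to 2 days, and 1 from normal adult hearts at 12 weeks. A library of input DNA had no antibody. How many hearts entered each library is not given in the sources used here.

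With 1 library a group there was no replicate error, and the single-library columns carry 3 codes that match no sample label. Every value here was therefore taken over all ChIP libraries together, and TAC, neonatal and adult hearts were not compared. The peak value of a gene is a whole number deposited by the authors, the largest signal that any library showed in that gene's regions, with no stated unit or scaling. The number of reads behind the tables is unknown. A region is the merged extent of called intervals, so one made of 1 interval comes from a call in 1 library. All 5 heart muscle markers were listed, with peak values of 141 at Actn2, 110 at Tnnt2, 106 at Ttn, 95 at Myh6, which had no start-site region, and 45 at Tnni3, against a median of 34 over all genes, and no region was assigned to Alb, Ins2 or Krt14, markers of liver, pancreatic islet and skin. Markers of other cells of the heart were listed too, all 4 endothelial (21 to 58), all 4 fibroblast (20 to 57), all 3 smooth muscle (13 to 25) and all 3 leukocyte genes (14 to 160). The chromatin was from whole tissue, so weak binding in all cells and strong binding in a few cells cannot be told apart.

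Most Zfp proteins are DNA-binding factors with arrays of C2H2 fingers, each finger reading a few bases, and many also hold a KRAB domain. KRAB recruits the corepressor Trim28, which brings the histone methyltransferase Setdb1 and HP1 proteins to silence retroelements and imprinted alleles. Many of the genes arose by tandem duplication and stand in clusters, where copies can be near-identical. How reads that fit several copies were placed is not given in the sources used here, so values within clusters are uncertain. Other Zfp genes have broad roles at promoters, in RNA handling or in development, and some are named for a single finger.

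TFIIB at Zfp genes was a promoter signal of ordinary height that rarely reached high values. A region centred within 1000 bp of the annotated start, called a start-site region here, was found at 196 of 227 Zfp genes (86.3%, exact binomial 95% interval 81.2 to 90.5%) and at 76.5% of all genes. These intervals cover counting over genes only, and neither genes nor regions are replicates. The same share was 82.1% for 28 Zbtb genes, another zinc finger family, and 63.6% for 11 Zscan and Zkscan genes. The median peak value was 33 for Zfp genes (interquartile range 23 to 42, full range 11 to 111) and 34 for all genes (24 to 47, 7 to 298). Without genes that share a region with another gene the medians were 31 for 89 Zfp genes and 29 for all genes, so the order of these close medians turned. Only 6 Zfp genes (2.64%) reached 65, the 90th percentile of all genes, where 10.3% of all genes stood. At the low end they did not stand apart, with 15.9% of Zfp genes and 17.4% of all genes under 20.

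Promoters of Zfp genes ranged from CpG-rich with GC boxes to CpG-poor with none, and 3 are printed as examples. They belong to genes with 1 region that no other gene shares, so the peak value is that of the printed start: the highest of these with 1 listed start and a window outside the gene's RefSeq transcripts, Zfp617 (51) and Zfp96 (50, now Zscan12), and the lowest whose region has no CpG island, Zfp456 (11). Each is the 250 bases just before the RefSeq start in GRCm38.p6, 5′ to 3′ on the gene's strand, with GC boxes (GGGCGG or its reverse complement) in capitals. Zfp617 lies at chr8:71922575-71922824 and Zfp96 at chr13:21362570-21362819, both on the plus strand, and Zfp456 at chr13:67375764-67376013 on the minus strand.
Zfp617: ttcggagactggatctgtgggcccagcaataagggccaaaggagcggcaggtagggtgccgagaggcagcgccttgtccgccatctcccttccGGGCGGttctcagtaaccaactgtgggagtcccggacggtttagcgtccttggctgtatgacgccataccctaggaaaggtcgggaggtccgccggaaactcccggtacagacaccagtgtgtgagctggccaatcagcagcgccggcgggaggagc
Zfp96: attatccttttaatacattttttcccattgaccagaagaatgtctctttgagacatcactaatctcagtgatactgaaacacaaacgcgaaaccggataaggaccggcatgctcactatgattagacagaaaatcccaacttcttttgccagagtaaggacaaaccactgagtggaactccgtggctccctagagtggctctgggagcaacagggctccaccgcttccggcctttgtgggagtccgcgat
Zfp456: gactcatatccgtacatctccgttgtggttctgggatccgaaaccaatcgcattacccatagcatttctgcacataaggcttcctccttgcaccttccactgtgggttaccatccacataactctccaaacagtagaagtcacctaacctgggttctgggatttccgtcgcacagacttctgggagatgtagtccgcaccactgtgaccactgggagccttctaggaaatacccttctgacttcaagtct
CpG dinucleotides numbered 18 at Zfp617, 9 at Zfp96 and 7 at Zfp456, and of these only Zfp617 had a GC box, so the second highest example resembled the lowest in these counts. Over 82 Zfp genes with 1 region at the start and 1 listed start, the peak value and the CpG ratio of the window (observed over expected) had a Spearman rho of 0.47, and over 3537 such genes in all 0.32. These are correlations across genes, which share libraries and base composition, and are given as a description.

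A second letter pattern marked many Zfp promoters, a short element that matches part of the site bound by Staf, the factor encoded by the Zfp gene Zfp143 itself. The element was written as GGGAA, then any letter, then TGTAGT, and was searched on both strands. It was chosen after Zfp promoter letters had been looked at, so its frequency is a description. The 7 stretches printed next are the 150 bases before the start of genes with the element, which is in capitals, from GRCm38.p6. They were picked to show starts with a CpG island (Zfp1 at chr8:111643293-111643442, plus strand; Zfp189 at chr4:49521026-49521175, plus; Zfp14 at chr7:30051397-30051546, minus; Zfp566 at chr7:30090511-30090660, minus) and without one (Zfp84 at chr7:29768402-29768551, plus; Zfp457 at chr13:67306413-67306562, minus; Zfp817 at chr13:67500523-67500672, minus).
Zfp1: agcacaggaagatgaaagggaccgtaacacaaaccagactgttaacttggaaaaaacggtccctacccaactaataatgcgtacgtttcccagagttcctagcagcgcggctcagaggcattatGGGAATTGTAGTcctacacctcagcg
Zfp189: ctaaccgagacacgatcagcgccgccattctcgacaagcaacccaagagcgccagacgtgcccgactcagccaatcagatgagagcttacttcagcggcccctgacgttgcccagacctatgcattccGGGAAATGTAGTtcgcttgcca
Zfp14: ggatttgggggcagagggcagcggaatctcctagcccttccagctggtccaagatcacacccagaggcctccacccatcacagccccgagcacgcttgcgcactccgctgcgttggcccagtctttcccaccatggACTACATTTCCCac
Zfp566: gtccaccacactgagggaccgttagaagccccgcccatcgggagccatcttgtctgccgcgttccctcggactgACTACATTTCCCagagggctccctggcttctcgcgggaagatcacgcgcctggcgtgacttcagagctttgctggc
Zfp84: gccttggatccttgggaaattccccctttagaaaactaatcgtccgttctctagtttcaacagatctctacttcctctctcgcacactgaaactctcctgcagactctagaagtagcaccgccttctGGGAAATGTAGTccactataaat
Zfp457: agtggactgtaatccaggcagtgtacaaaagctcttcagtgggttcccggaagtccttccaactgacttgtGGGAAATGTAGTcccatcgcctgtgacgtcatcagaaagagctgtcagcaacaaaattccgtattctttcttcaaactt
Zfp817: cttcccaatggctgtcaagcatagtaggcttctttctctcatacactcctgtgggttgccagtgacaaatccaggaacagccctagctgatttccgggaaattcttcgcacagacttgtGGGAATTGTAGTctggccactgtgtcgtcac
In Zfp14 and Zfp566 the element is on the opposite strand and reads as its reverse complement.

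The Staf-like element stood in the promoter window of 25 of 145 Zfp genes with a single listed start (17.2%, 95% interval 11.5 to 24.4%) and of 191 of 8534 such genes in all (2.24%). The window ran from 250 bases before to 50 after the start. Zfp genes were 13.1% of the genes with the element and 1.70% of the genes searched. The element began 149 to 2 bases before the start, with a median of 52 bases, and 20 of 25 began within 100 bases of it. In 19 of 25 it was on the gene's own strand. The 25 genes lay on 6 chromosomes, 14 on chromosome 7 and 6 on chromosome 13, and 19 of them had a Zfp neighbour within 100 kb. Of the 300 pairs among their windows, aligned without gaps at shifts of up to 50 bases, 1 pair was alike in 60% or more of its letters, Zfp457 with Zfp759 (86.4%). The median over the pairs was 32.1%. Such an alignment misses likeness broken by insertions or lying at larger shifts, so a common origin of the windows was not tested.

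Zfp genes with the element had low peak values, a median of 22 (14 to 50) against 33 (11 to 91) for the 120 without it. Among Zfp start-site regions without a CpG island, 10 of 16 searched genes (62.5%) held it, compared with 4.89% of 921 island-free starts over all genes. Among island starts it was in 12.4% of 113 Zfp genes and 2.03% of 5909 other genes. Absence of an island moved with the lower values and with the element, and its part in either was not tested. Highest among the carriers was Zfp692 at 50, followed by Zfp146 at 46 and Zfp1 at 42, and lowest were Zfp759, Zfp817 and Zfp93, each at 14. Zfp692 shares 2 regions with Zfp672, also at 50, and Zfp146 shares its region with EG330503, also at 46. The values of Zfp692 and Zfp146 may therefore belong to their neighbours. Zfp260 carried the element 29 bases before its start.

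**Figure D1:**
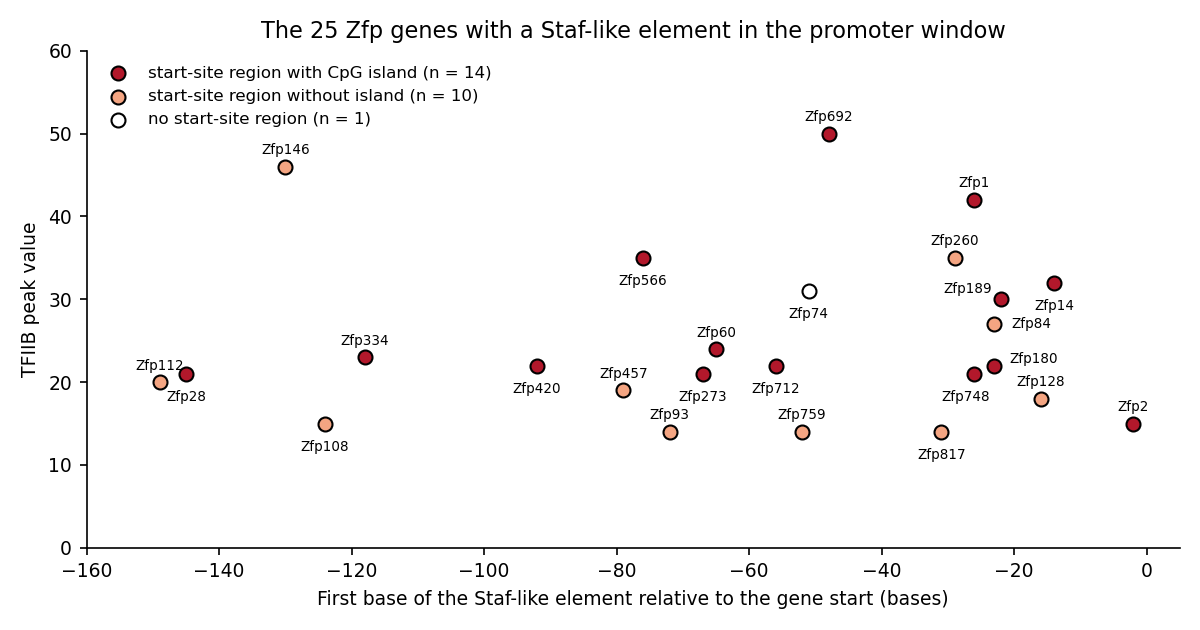
Each point is 1 of the 25 Zfp genes with a Staf-like element. The x axis gives the first base of the element in bases from the gene start, the y axis the deposited TFIIB peak value (plotted on a linear axis), and the fill shows whether the start-site region held a CpG island. The points lie between 149 and 2 bases before the start and between 14 and 50 in peak value.

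Other promoter motifs were searched in the same 145 windows on both strands. GC boxes were in 49.0% of Zfp windows and 64.1% of windows over all genes, and within island starts in 53.1% of Zfp genes and 73.6% of other genes. ETS sites (CCGGAAG) were in 42 of 145 Zfp genes (29.0%) against 1539 of 8534 genes in all, and within island starts in 32.7% against 21.8%. The core of the TFIIB recognition element (GCGCC or ACGCC) was in 73.8% of Zfp genes and 76.9% of all genes, and within island starts in 80.5% of Zfp genes (interval 72.0 to 87.4%) and 87.5% of other genes. The CCAAT box (37.9% against 39.1%), the TATA box (TATAAA, 5.52% against 7.45%), the YY1 site (ATGGCGG, 9.66% against 8.31%), the NRF1 site (TGCGCA, 18.6% against 14.3%) and the CRE (TGACGTCA, 2.76% against 3.26%) had Zfp intervals that held the share of all genes. GC boxes and recognition element cores can overlap in letters. Zfp windows were also poorer in CpG, with a median observed over expected ratio of 0.72 against 0.76 for all genes and 57.7% against 60.7% G plus C. Within island starts the ratio was 0.75 for Zfp genes and 0.83 for other genes.

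**Figure D2:**
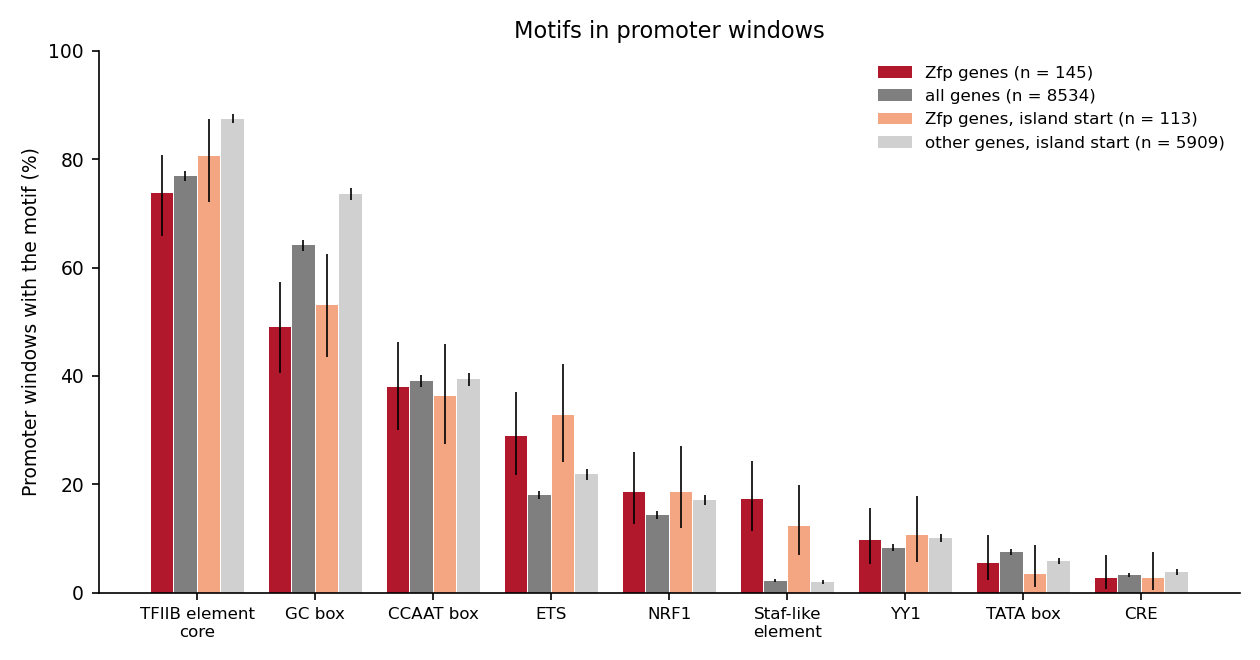
Bars give the percent of promoter windows with each motif for Zfp genes, all genes, Zfp genes with an island start and other genes with an island start. Error bars are exact binomial 95% intervals over genes. The Staf-like element reaches 17.2% of Zfp windows against 2.24% of all, and the GC box 49.0% against 64.1%.

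CpG islands lay in 167 of the 196 Zfp start-site regions (85.2%), where 85.4% of all genes' start-site regions held one. Regions of 1 interval made up 43 of 196 (21.9%, interval 16.4 to 28.4%), with 18.1% for all genes. Zfp start-site regions were shorter, with a median of 1286 bp against 1449 bp, and were centred at a similar place, a median of 35 bp against 38 bp past the start. Peak values followed these classes. Zfp genes with an island start had a median of 34 and those with an island-free start 20, against 37 and 27 for all genes. Zfp starts of 3 or more intervals had a median of 39, those of 2 intervals 30.5 and those of 1 interval 21, and all genes gave 42, 30 and 21. Since a region called in more libraries also gives the maximum more chances, these classes are not independent of the peak value.

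**Figure D3:**
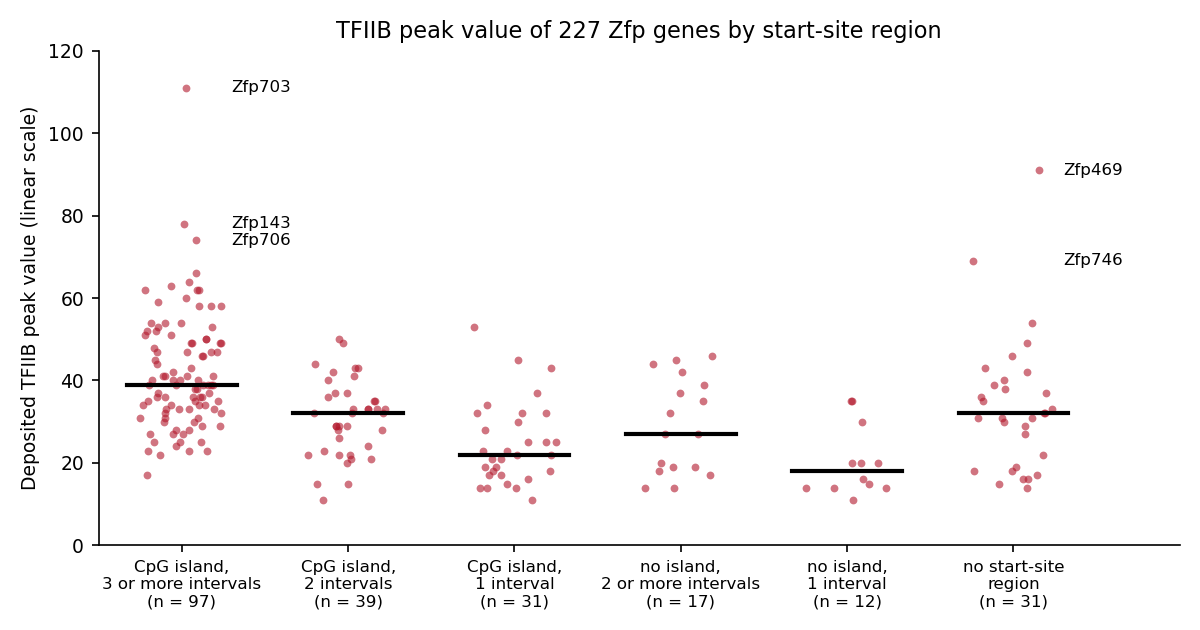
Each point is the deposited TFIIB peak value of 1 Zfp gene, grouped by CpG island and number of called intervals of its start-site region, and bars are medians. Medians run from 39 with an island and 3 or more intervals to 18 with no island and 1 interval, and Zfp469 and Zfp746 stand at 91 and 69 with no start-site region.

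The gene highest in TFIIB was Zfp703, a nuclear corepressor amplified in human breast cancer, at 111. Its start-site region on chromosome 8 (mm9, 28086102 to 28090040) was 3938 bp long with 6 intervals and an island, and a second region lay 2639 bp past the start. Next came Zfp469 at 91, a gene now named Tnrc18, with an 11370 bp region of 13 intervals and 3 islands that was centred 1213 bp before the start, which it covers, and so was not counted as a start-site region. Zfp143, the Staf factor, followed at 78 with 1 region of 2659 bp. Zfp706, a small zinc finger protein, had 74, and Zfp746, the parkin substrate that represses Ppargc1a, had 69 from 1 island region 34044 bp inside the gene. Zfp647 (66), Zfp62 (64), Zfp397 (63), Zfp295 (62, now Zbtb21), Zfp553 (62) and Zfp771 (62) completed the top, all with island start-site regions of 3 or more intervals. Zfp553 was also assigned the start-site region of Zfp771, so their common value may belong to that region alone. Zfp397 and Zfp295 each share the start-site region with another gene, and Zfp647 shares regions beyond its end. The values of Zfp397, Zfp295 and Zfp647 may therefore belong to neighbours too. The lowest were Zfp105, Zfp456 and Zfp612 at 11, above which Zfp40, Zfp459, Zfp462, Zfp579, Zfp597, Zfp711, Zfp759, Zfp817 and Zfp93 shared a value of 14.

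A list drawn up for factors of GC-rich and general promoters also held genes with other roles, such as Zfp91, Zfp326 and Zfp207. All 9 listed genes had island start-site regions, where 76.5% of all genes had a start-site region and 85.4% of those held an island. In 8 the region had 3 or more intervals, as had 58.0% of start-site regions over all genes. The median peak value of the 9 was 52 (27 to 78). Zfp143 led, and Zfp91, a ubiquitin ligase of the NF-κB pathway, had 60. Zfp326, which couples RNA polymerase II elongation with splicing, had 59, and Zfp207, a partner of the spindle checkpoint protein Bub3, had 58. Zfp148, a factor of GC-rich promoters, had 52, Zfp335 had 45, and Zfp281, another GC-rich binder, had 37. Zfp64 and Zfp263 were lower at 33 and 27.

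Genes of RNA and ribosome work came next in height, with all 8 present and a median of 46 (18 to 74). Besides Zfp706 they included Zfp622 at 52, a factor of the large ribosomal subunit, and Zfp346 at 51, a binder of double-stranded RNA with 4 regions. Zfp106, an RNA-binding protein needed by motor neurons, had 49, and Zfp598, the ubiquitin ligase that senses collided ribosomes, had 43. Zfp330 stood at 33. Zfp593, whose yeast relative exports the large subunit, had 18 with a start-site region of 1 interval. Zfp318, known from B cells, had 32 and no start-site region, its single island region being centred 2907 bp before the start.

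KRAB silencers of retroelements and imprints were represented by 4 of 6 listed genes, with a median of 41 (27 to 58). Zfp568, which silences a placental Igf2 transcript, had 58, and Zfp809, which starts the silencing of retroviruses that use a proline tRNA primer, had 48. Both starts held an island and 3 intervals. Zfp445, a guardian of imprints, had 34 from 1 short island region centred 1 bp before the start. Zfp708, which binds a retroelement family, had 27 and regions 16521 bp inside the gene and 36984 bp from the start beyond its end, with none at the start. Zfp57 and Zfp932 had no assigned region.

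The list of the KRAB corepressor machinery held 20 genes, among them Zfp57, itself a silencer. Regions were assigned to 18, all but Zfp57 and Mphosph8, and their median was 42 (16 to 124). Trim28, the corepressor that binds KRAB, had 82. The HP1 genes had 124 at Cbx3, 55 at Cbx5 and 32 at Cbx1, but the start-site regions of Cbx3 and Cbx5 are divergent and shared with Hnrpa2b1 and Hnrpa1, so those values may belong to the partner. Hdac1 had 73 and Hdac2 43, Chd4 45 and Chd3 25, both pairs from the deacetylase and remodelling complex. Setdb1 had 43, its cofactor Atf7ip 43, and Morc2a and Pphln1 of the HUSH pathway 52 and 41. The start-site region of Pphln1 is also divergent, shared with Zcrb1, so its value may belong to that partner. Setdb1 and Morc2a had no start-site region. Lowest were Suv39h1 (16), a methyltransferase on X, and Atrx (22), a remodeller also on X. Start-site regions were found at 16 of 18, all with islands, where 76.5% of all genes had one and 85.4% of those held an island.

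The list of developmental regulators, with 8 of 11 genes present, had a median of 29.5 (14 to 111), lower than those of the lists above. Zfp703 was its highest. Zfp521, a partner of early B-cell factors, had 39 and Zfp503, the closest relative of Zfp703, had 32 over 3 regions, of which the one at the start held 1 interval. Zfp238, the repressor now named Zbtb18, had 31 with regions 1559 and 2808 bp before the start. Zfp217, a corepressor, had 28, and Zfp423, which commits cells to the fat lineage, 23. Zfp467 had 17, although its start-site region held 6 intervals, and Zfp462 had 14, with a start-site region of 1 interval and no island. In the heart list Zfp260, a cofactor of Gata4 induced by adrenergic signals in cardiomyocytes, had 35 and Zfp667, known from rat hearts after ischaemic preconditioning, had 22. The start-site region of Zfp260 held 1 interval and no island, while a region 4620 bp before its start, which is the start-site region of its neighbour Zfp566, held 3 intervals and an island. The value of 35 was listed for both genes and may belong to either region. Zfp418, Zfp516, Zfp42 and Zfp750 had no assigned region.

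Several regions inside or beside a Zfp gene were the exception. A single region was assigned to 57.7% of Zfp genes and 52.7% of all genes, and 3 or more to 13.2% against 20.7%. Of the 368 pairings of a Zfp gene with a region, 200 (54.3%) were at the start and 39 (10.6%) more than 5000 bp from the start inside the gene, compared with 41.5% and 15.5% of 26956 pairings over all genes. Zfp710 had the most, 8 regions, with a 5096 bp start-site region of 7 intervals and 2 islands and 7 more regions 9580 to 55757 bp inside the gene. Zfp423 had 6, of which 3 stood 20531 to 296641 bp inside. Genes with 4 were Zfp213, Zfp346, Zfp385, Zfp521, Zfp532, Zfp593 and Zfp608. Regions farther than 5000 bp from the start and beyond the gene's end made up 16.6% of Zfp pairings and 21.2% of all, and 96.7% of these Zfp regions and 88.8% of those over all genes were shared with another gene. In all 138 Zfp genes shared a region with another gene, so that a value can belong to a neighbour. Sharing was not particular to Zfp genes, as 54.6% of their start-site regions and 54.8% of those over all genes were shared.

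Chromosome 7 carried 60 of the 227 Zfp genes (26.4%) but 8.07% of all genes, and chromosomes 13 and 17 carried 20 each (8.81%), against 530 and 723 of the 14469 genes. The family is placed in this way in the genome too. Of 366 RefSeq protein-coding genes named by the same rule, 89 lie on chromosome 7, 32 on 13 and 41 on 17. Of these, 74, 21 and 30 had assigned regions. The median peak value was 32.5 for Zfp genes of chromosome 7 and 34 for all its genes. On chromosome 13 it was 21 for Zfp genes against 34.5, with 8 of 20 Zfp genes and 99 of 530 genes in all under 20, and on chromosome 17 it was 29.5 against 37. Islands lay in 62.5% of Zfp start-site regions on chromosome 13 and 58.8% on chromosome 17, against 88.0% and 82.1% for all genes there. On chromosome 9 the 13 Zfp genes had a median of 25, against 34. On chromosome 15 the 10 Zfp genes had a median of 48, against 34 for all genes of that chromosome. On X the 5 Zfp genes had 16 and all genes 22.

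**Figure D4:**
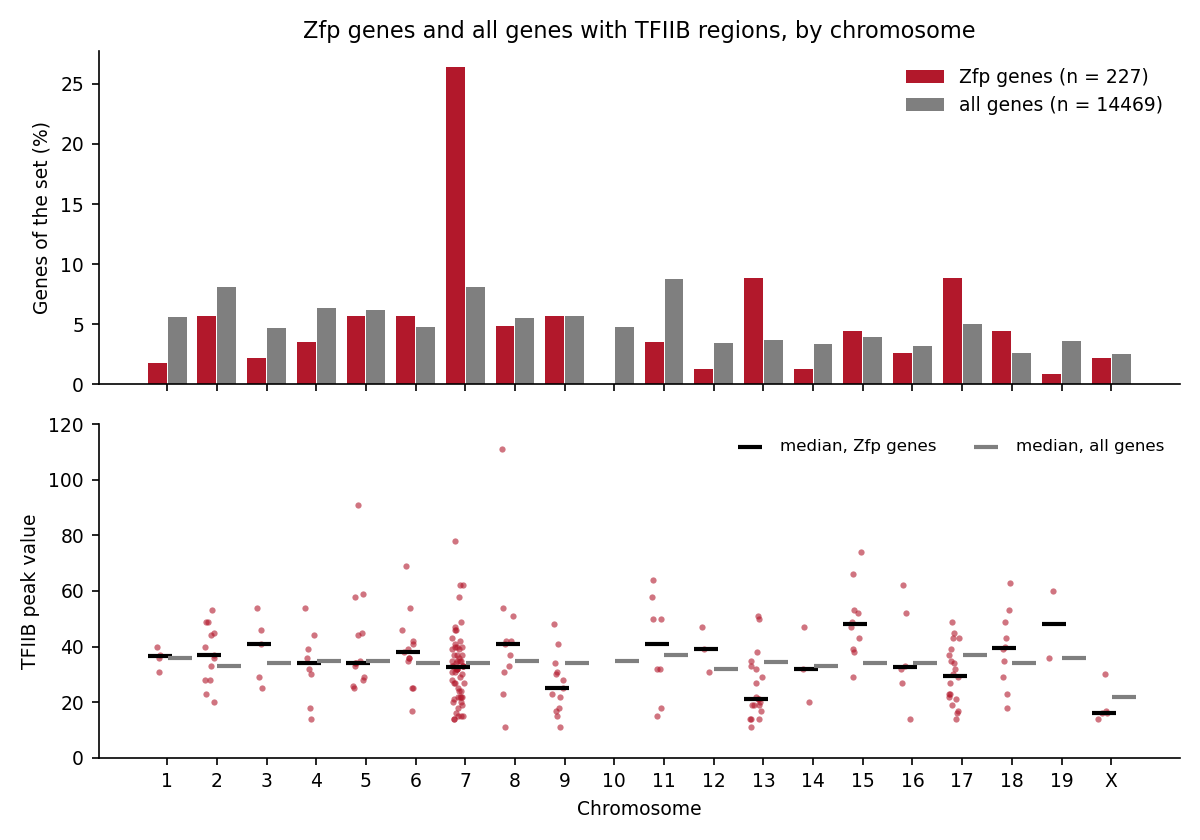
The upper panel gives the percent of Zfp genes and of all genes on each chromosome. The lower panel gives the TFIIB peak value of each Zfp gene (points) with the median of Zfp genes and of all genes. Chromosome 7 holds 26.4% of Zfp genes, and the Zfp median is furthest below that of all genes on chromosomes 13 (21 against 34.5), 9 (25 against 34) and 17 (29.5 against 37).

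Runs of Zfp genes whose starts lay within 100 kb of the next held 97 genes (42.7%) in 30 runs, and 130 genes stood alone. Peak values were close, with a median of 32 in runs and 33.5 alone, and start-site regions were as frequent, 87.6% against 85.4%. Islands were fewer in runs, 76.5% against 91.9% of start-site regions. The Staf-like element was in 26.8% of 71 searched genes in runs and 8.11% of 74 alone. The longest run, 12 genes over 401 kb of chromosome 7, ran from Zfp84 to Zfp146 with values of 15 to 58 and 11 start-site regions, 7 of them with an island. Zfp568 was its highest and Zfp30 its lowest (15), and Zfp74 alone had no start-site region (31). Of its 17 regions 5 were named by 2 members, among them both regions of Zfp260, shared with Zfp566.

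A run of 6 genes on chromosome 13 was the lowest of the long ones. Its values were 19 at Zfp457, 11 at Zfp456, 14 at Zfp459, 14 at Zfp817, 21 at Zfp748 and 32 at Zfp87, and 1 of its 5 start-site regions held an island. The other long runs were on chromosome 7, each of 5 genes. One held Zfp628 (30, no start-site region), Zfp579 (14), Zfp524 (34), Zfp784 (33) and Zfp580 (32). The other held Zfp329 (27), Zfp110 (35), Zfp128 (18), Zfp324 (37) and Zfp446 (37), where Zfp128 alone had no island and carried the Staf-like element.

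**Figure D5:**
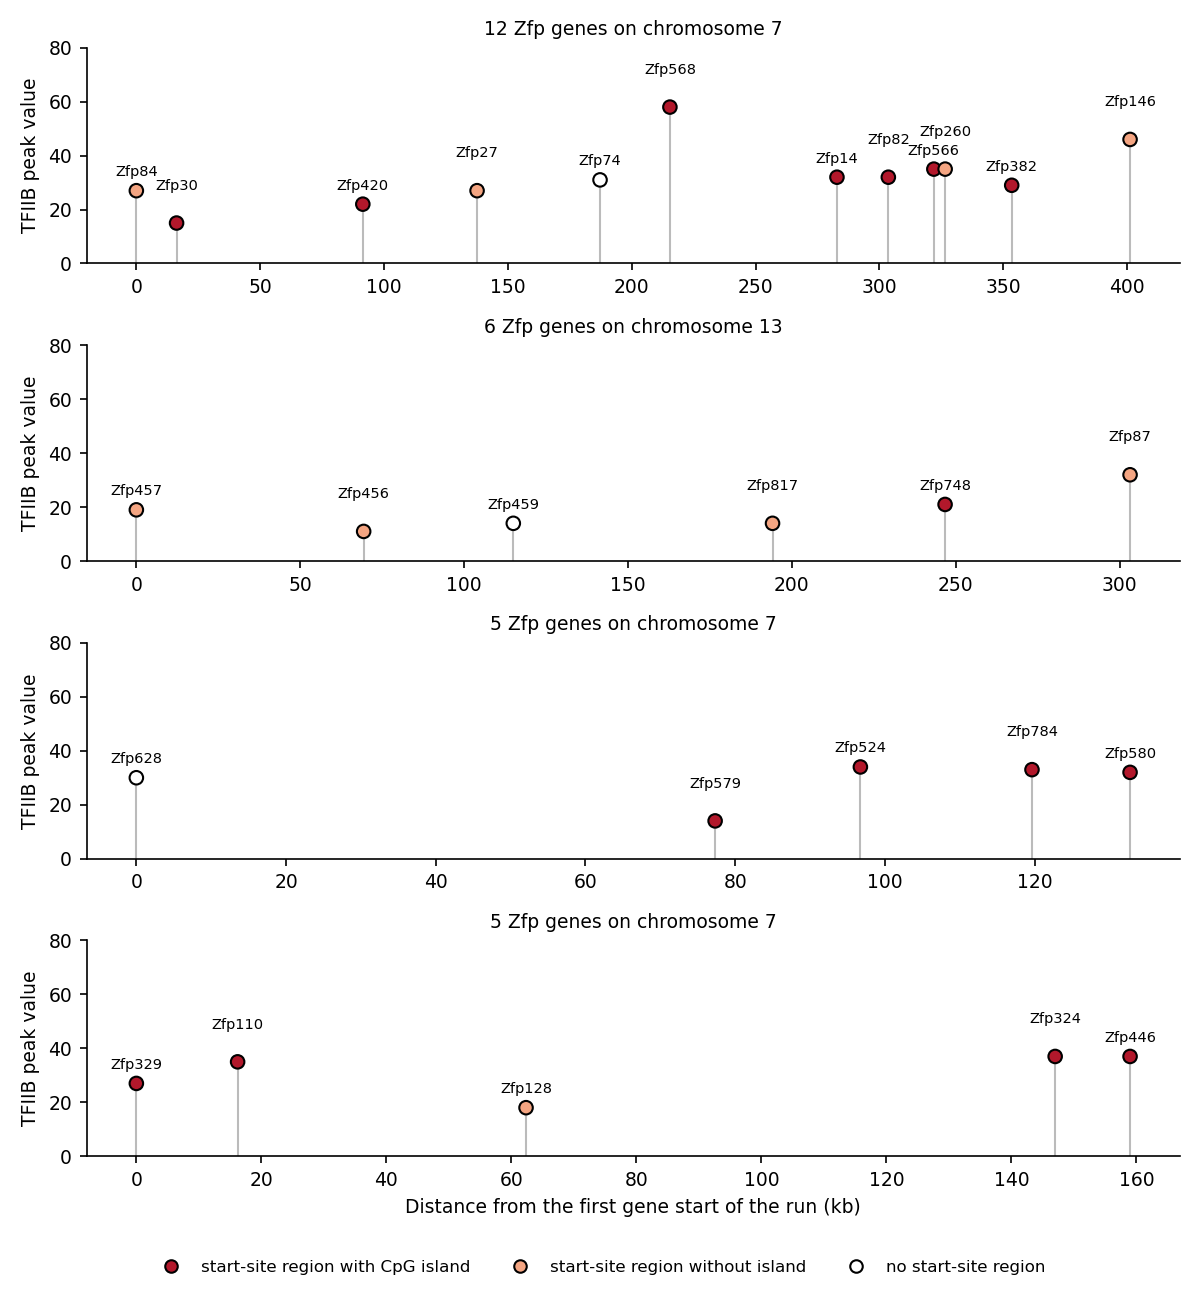
The 4 longest runs of neighbouring Zfp genes, with each gene start placed by its distance in kb from the first start (x axis) and its TFIIB peak value (y axis). Fill shows start-site regions with a CpG island, without one, or none. The run of 12 spans values of 15 to 58, and the run of 6 on chromosome 13 stays at or below 32.

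Divergent promoters, where a region was centred within 1000 bp of the starts of 2 genes that point away from each other, were rare for Zfp genes. They held 14 of 196 Zfp start-site genes (7.14%), where 16.2% of all genes with a start-site region had one. None of the 14 pairs joined a Zfp gene to another, and 13 of 14 regions held an island. Zfp668 and Zfp646 point away from each other, with starts 0.878 kb apart, and share a region. Its centre lay 461 bp inside Zfp668 but 1339 bp before the start of Zfp646, so this Zfp pair was not counted. The starts were a median of 186 bp apart (12 to 1255 bp). Zfp143 shared its region with AA474408 (78), and Zfp277 with Dock4, an activator of Rac signalling (47). Zfp146 shared with the predicted gene EG330503 (46), the 1 pair without an island. Zfp364, now Rnf115, paired with Polr3c, a subunit of RNA polymerase III, and Zfp319 with AA960436, both at 41. Divergent Zfp genes had a median of 34 and other Zfp start-site genes 33, against 38 and 35 for all genes.

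The 31 Zfp genes without a start-site region had a median of 32 (14 to 91), against 28 for all such genes. Beyond the Zfp genes of the table, 57 genes listed under other names now carry a Zfp symbol. Their median was 26, and 51.1% of their start-site regions held an island, below the 85.2% of Zfp genes. RefSeq has 366 protein-coding genes named by the same rule, of which 263 (71.9%) were in the table, compared with 59.2% of 21900 protein-coding genes. The other 103 had no assigned region, which can also mean that the annotation used for the table did not hold them. Promoter windows of 77 of these had a median CpG ratio of 0.41, against 0.37 over all 22862 RefSeq windows with 1 listed start. The Staf-like element was in 7.79% of the 77 and 1.03% of all such windows, and the CCAAT box in 68.8% and 38.2%.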

How the data were processed

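ChIP, library construction and sequencing were done by a service company, per the labels' protocols, and the submitters' processing notes name the build mm9. The sources used here give no aligner, interval caller, threshold or scaling. Peak values, a signal of unstated normalization, were used as the authors deposited them, with region positions, lengths, intervals and islands, per the file headers. The listed lengths matched the positions in 100% of regions. The 15 columns of single libraries match no sample label and were not used, so the comparisons of TAC with adult and of neonate with adult were not run. Members, gene lists and rules were chosen with earlier results of these data known. Named genes are those with the highest and lowest values, the most regions, listed roles, the longest runs and the top divergent pairs. A few further genes and all genes of the printed promoters illustrate a pattern and were chosen after their values were seen. Promoters came from RefSeq (GRCm38.p6), where 183 members had a window and 145 had 1 listed start, and no coordinates were converted. Analysis of zinc finger and KRAB patterns in proteins was not run, as no protein sequence was used here. Functions were tested on simulated data. Python 3.11.15, pandas 2.3.3, numpy 2.4.6, scipy 1.17.1 and matplotlib 3.10.9 were used.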

Additional observations from a re-analysis of the deposited data

How the results depend on the processing

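No paired analysis was possible because each group has 1 library and no value is given per group. The share of Zfp genes with a start-site region was 81.9% within 500 bp, 86.3% for starts inside a region, 88.0% at peak values of 20 or more, 85.4% without shared regions and 94.3% within 5000 bp, where all genes gave 68.7%, 75.6%, 80.9%, 82.8% and 85.4%. The median peak value was 31 without shared regions (89 genes) and 36 at peak values of 20 or more (191 genes), against 29 and 38 for all genes, so the order of Zfp genes and all genes turned where shared regions were left out, and 32 with current symbols (264 genes). Of all 227 Zfp genes, 6.17% were divergent with a region centred within 1000 bp of both starts, against 12.4% of all genes. Within 5000 bp the Zfp share was 14.5%. The share of all genes at 5000 bp was not worked out, so the lower share of Zfp genes is shown at 1000 bp only. The CpG ratio was 0.78 in the 100 bases before the start, and 35.7% of Zfp genes lay in runs at 50 kb. In that shorter window, where shares can only be lower, the Staf-like element was in 14.5% of Zfp genes and 1.31% of all genes, the GC box in 33.8% and 47.0%, and the TATA box in 0.69% and 2.86%. Counting any listed start, a choice made after the data were seen, the Staf-like element was in 15.3% of 183 Zfp genes and 2.21% of all genes. Leaving out chromosome 7, also chosen afterwards, gave a median of 34. Alternatives for protein patterns were not run. Island shares ran from 84.2% to 85.7% and single-interval shares from 20.4% to 27.6% over their alternatives. Depth is unknown, and the maximum over libraries hides which library gave a value.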
